A study of Mus musculus with 8 samples.

Results

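Genes of leukocyte adhesion, 9 in number, were followed in colitis liver: 5 that encode ligands on the vessel wall (Icam1, Icam2, Vcam1, Selp and Sele) and 4 that encode integrin chains of leukocytes (Itgam, Itgb2, Itgal and Itgax). They were taken by name, and 9 of 9 were found among the 22180 genes of the array table, each with 1 row. The arrays (Affymetrix Mouse Gene 2.0 ST) measured liver RNA of 4 mice labelled IL-10 knockout, hereafter KO, and 4 wild-type mice, WT. Both groups were labelled as C57BL/6 females aged 6 weeks, and both drank 3% dextran sulfate sodium (DSS), which injures the colon lining, for 7 days. No mice without DSS enter the comparison, so it sets the genotypes against each other within colitis. How the Il10 gene was mutated is not stated there.

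Leukocytes leave blood in steps. Selectins, here P-selectin (Selp) and E-selectin (Sele), catch passing cells, and immunoglobulin-family ligands such as ICAM-1 (Icam1) and VCAM-1 (Vcam1) then hold them firmly. The leukocyte integrins that grip ICAM-1 are pairs of an alpha chain with the shared beta chain Itgb2: Itgal forms LFA-1, Itgam forms Mac-1, the integrin of neutrophils and macrophages, and Itgax forms an integrin of dendritic cells and macrophages. ICAM-2 (Icam2) is a ligand that endothelium carries at rest, while Icam1, Vcam1 and Sele are known targets of inflammatory cytokines through NF-kB. In liver much of this traffic passes through sinusoids, where neutrophils can arrest without selectins, and where Kupffer cells carry integrins as residents.

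Promoter sequences from RefSeq (GRCm38.p6) were found for 5 of the 9 genes, Icam1, Selp, Sele, Itgam and Itgax. Each covers 250 bases before to 50 after the gene start, and 4 are shown because within each kind of molecule they set a gene that rose in KO-labelled livers, Icam1 or Itgam, beside one that did not pass the test, Sele or Itgax. Capitals mark 2 spellings searched on both strands, GGNNNTTCC, which resembles an NF-kB site, and GAGGAA, which resembles a site for the myeloid factor PU.1.
Icam1, chr9:21015690-21015989, plus strand: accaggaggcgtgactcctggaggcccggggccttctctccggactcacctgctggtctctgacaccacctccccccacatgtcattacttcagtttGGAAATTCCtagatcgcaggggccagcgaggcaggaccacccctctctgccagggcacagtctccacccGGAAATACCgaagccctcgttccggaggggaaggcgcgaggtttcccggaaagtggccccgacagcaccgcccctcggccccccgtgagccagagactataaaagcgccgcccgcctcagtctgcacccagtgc
Sele, chr1:164047984-164048283, plus strand: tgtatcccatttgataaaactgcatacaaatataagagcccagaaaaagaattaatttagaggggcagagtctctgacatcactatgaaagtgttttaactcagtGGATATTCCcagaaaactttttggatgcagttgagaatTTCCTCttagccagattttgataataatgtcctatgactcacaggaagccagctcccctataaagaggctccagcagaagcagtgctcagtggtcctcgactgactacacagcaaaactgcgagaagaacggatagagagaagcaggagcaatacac
Itgam, chr7:128062390-128062689, plus strand: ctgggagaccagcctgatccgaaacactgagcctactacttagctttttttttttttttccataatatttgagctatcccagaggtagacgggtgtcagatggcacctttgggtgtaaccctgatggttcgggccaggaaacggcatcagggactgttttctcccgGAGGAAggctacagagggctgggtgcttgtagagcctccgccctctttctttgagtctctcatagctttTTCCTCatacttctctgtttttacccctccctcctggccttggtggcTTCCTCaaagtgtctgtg
Itgax, chr7:128129300-128129599, plus strand: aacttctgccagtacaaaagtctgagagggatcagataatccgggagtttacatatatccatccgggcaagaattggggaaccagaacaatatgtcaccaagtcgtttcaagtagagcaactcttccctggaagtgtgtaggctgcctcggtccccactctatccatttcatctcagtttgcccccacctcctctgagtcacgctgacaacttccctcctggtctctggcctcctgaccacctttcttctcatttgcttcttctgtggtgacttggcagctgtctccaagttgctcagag
The first spelling stands at 2 places in the Icam1 window and 1 in that of Sele, and 18.5% of the 32851 promoter windows of this length hold it. The Selp window holds it at 1 place too. The second stands at 3 places in the Itgam window and 1 in that of Sele, and 28.3% of all windows hold it. The Itgax window holds neither. The letters TTCC can belong to both spellings, but no match of one overlapped a match of the other in these windows. A match describes letters only, and Sele holds the first spelling while its RNA level did not pass.

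The values are log2 levels from the authors' robust multi-array averaging (RMA), with errors as SD over n = 4 arrays in each group unless given as SE. The targeted gene, Il10, was higher in the arrays labelled knockout, at 5.97 ± 0.32 against 4.97 ± 0.08 in WT arrays (limma adjusted p = 0.00851). The position of the mutation under these probes is unknown here. The row therefore checks no label, and directions below are those of the labels. The label female also disagrees with the values: replicates 1 and 2 of each group had Y-linked signal (Uty between 8.15 and 8.71) and little Xist, and replicates 3 and 4 had Xist signal (between 11.68 and 11.82) and little Y-linked signal. Each genotype thus has 2 arrays of each kind, and values within each kind are given below. For 15 hepatocyte markers the per-array mean level was between 12.51 and 12.62 in KO arrays and between 12.52 and 12.58 in WT arrays. These means lay far above the array medians of 6.09 to 6.22. Single markers did differ: KO and WT arrays did not overlap for 8 of the 15, against 12.9% of all genes. Limma called 1 of the 15 higher, Tat (log2 0.51; adjusted p = 0.0247), and none lower. That call was lost without KO replicate 4 or WT replicates 2, 3 or 4.

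Of the 9 genes, 4 were higher in the arrays labelled knockout (limma adjusted p below 0.05) and none was lower. They were Icam1 and Vcam1 on the vessel wall side and Itgb2 and Itgam on the leukocyte side. Over all 22180 genes 1.56% were called higher and 1.59% lower, 3.15% in either direction. The median log2 difference was 0.51 over the 9 genes and 0.02 over all genes. The groups did not overlap for 4 of the 9, against 12.9% of all genes. The 9 genes and the lists below were chosen with earlier results of these data known. Their shares therefore describe the genes and do not test them against all genes. RNA of whole liver cannot tell fewer or more cells of a type from less or more RNA per cell, and Icam1 and Vcam1 are also made by cells other than endothelium.

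**Figure D1:**
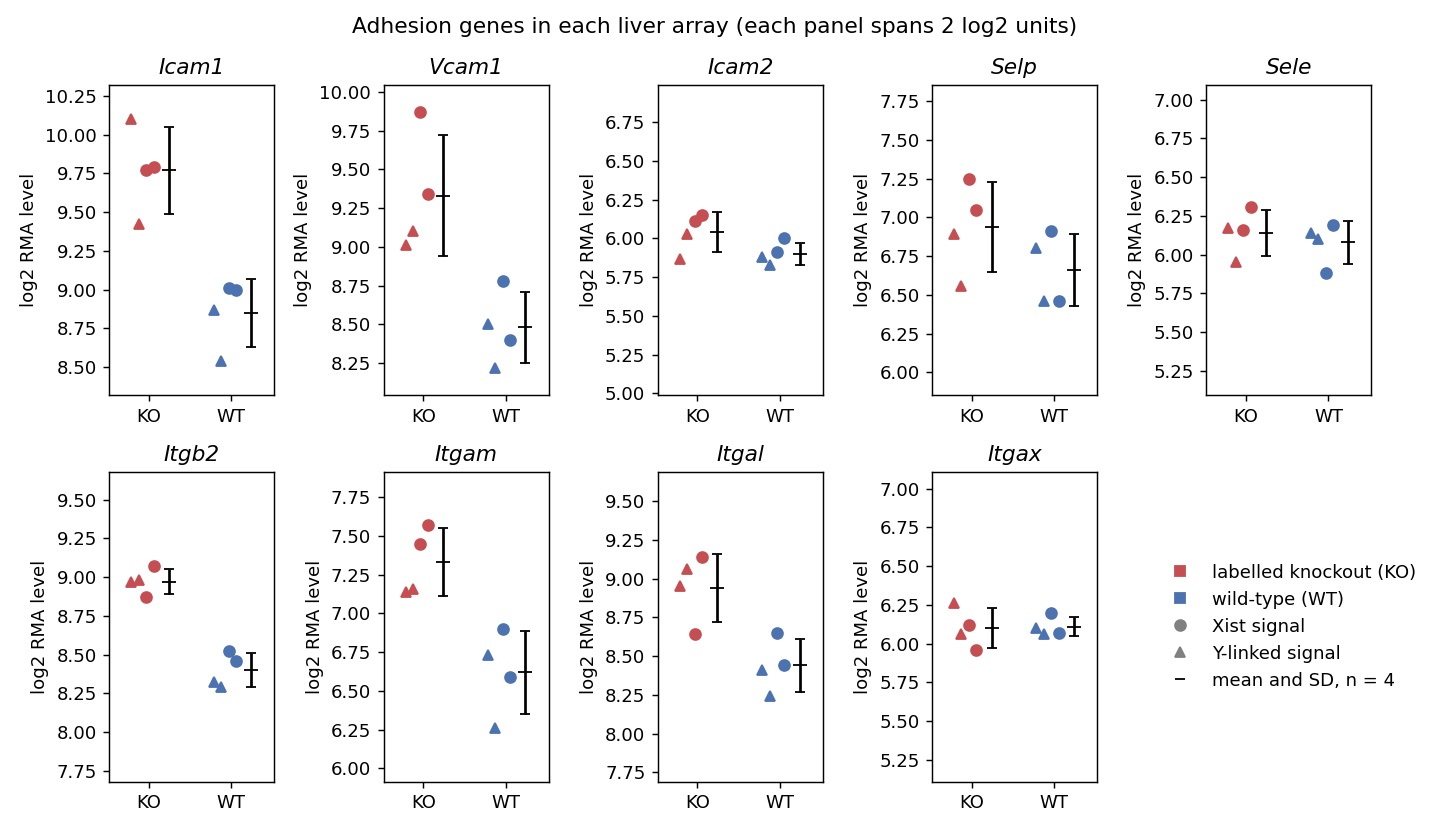
Log2 RMA level of each of the 9 genes in every array, KO left of WT; symbols give Xist or Y-linked signal, and bars the mean and SD of 4 arrays. The groups stand apart for Icam1, Vcam1, Itgb2 and Itgam, and overlap for Itgal, where KO replicate 3 read 8.64.

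Icam1, the main endothelial counter-receptor of the Itgb2 integrins, rose. It read 10.10, 9.42, 9.77 and 9.79 in KO replicates 1 to 4, against 8.87, 8.54, 9.01 and 9.0 in WT replicates 1 to 4. Every KO array lay above every WT array, and the lowest array of both groups was replicate 2. The means were 9.77 ± 0.28 in KO arrays and 8.85 ± 0.22 in WT arrays, a 1.88-fold difference (log2 0.91, SE 0.15; limma adjusted p = 0.0143). The call held with each array left out in turn (adjusted p between 0.0100 and 0.0485).

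Vcam1, a ligand for the alpha-4 integrins of lymphocytes and monocytes, also rose, with more spread among the KO arrays. Its level was 9.01, 9.10, 9.87 and 9.34 in KO replicates 1 to 4, against 8.50, 8.22, 8.78 and 8.40 in WT replicates 1 to 4. KO replicate 3 was the highest array and WT replicate 3 the highest of its group, and the groups did not overlap. The means of 9.33 ± 0.39 in KO arrays and 8.48 ± 0.23 in WT arrays differed 1.81-fold (log2 0.85, SE 0.18; limma adjusted p = 0.0390). The call was lost without KO replicate 4 (adjusted p = 0.102), and without WT replicates 1, 2, 3 or 4 (0.102, 0.102, 0.0591 and 0.0778), while the log2 difference stayed between 0.67 and 0.96.

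The other 3 ligands did not pass. Icam2 read 5.87, 6.03, 6.11 and 6.15 in KO replicates 1 to 4, against 5.88, 5.83, 5.91 and 6.00 in WT replicates 1 to 4, so the groups overlapped. Its log2 difference was 0.14, with a 95% interval from -0.04 to 0.32 (limma adjusted p = 0.349). Selp, which platelets and endothelium hold in storage granules, read 6.89, 6.56, 7.25 and 7.05 in KO replicates 1 to 4, against 6.80, 6.46, 6.91 and 6.46 in WT replicates 1 to 4. KO replicate 2 lay below 2 of the WT arrays. The log2 difference was 0.28, with an interval from -0.07 to 0.62 (limma adjusted p = 0.330). Sele, made by endothelium on demand, read 6.17, 5.95, 6.16 and 6.31 in KO replicates 1 to 4, against 6.14, 6.10, 5.88 and 6.19 in WT replicates 1 to 4. These values mix freely, with a log2 difference of 0.07 and an interval from -0.15 to 0.29 (limma adjusted p = 0.710). With quantile normalization or cyclic loess the difference of Sele changed sign, to -0.01 in each. Icam2 and Sele lay close to the array medians of 6.09 to 6.22, and no detection call comes with the table, so a small change in them could go unseen.

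Sele and Selp are near neighbours on chromosome 1, which also carries Il10. In the RefSeq gene order 230 protein-coding genes stand between Sele and Il10 and 232 between Selp and Il10. Itgam and Itgax are adjacent genes on chromosome 7, with Itgal 35 protein-coding genes away from Itgam.

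**Figure D2:**
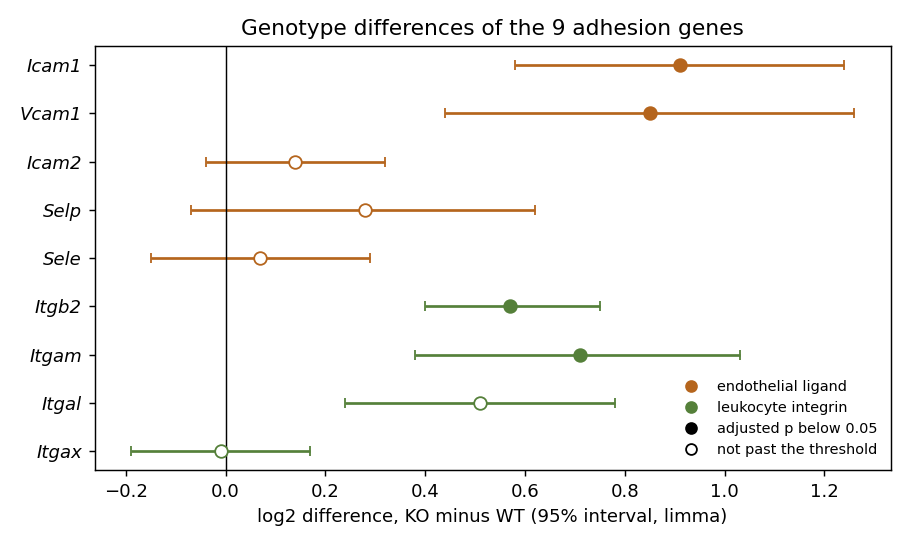
Log2 difference, KO minus WT, of the 9 genes with 95% limma intervals; filled points passed the adjusted p threshold. Icam1 (0.91) and Vcam1 (0.85) stand right of the other 3 ligands, whose intervals include 0, and Itgax (-0.01) stands left of the other 3 integrin chains.

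Itgb2, the beta chain shared by the leukocyte integrins, had the smallest spread of the genes that rose. It read 8.97, 8.98, 8.87 and 9.07 in KO replicates 1 to 4, against 8.32, 8.29, 8.52 and 8.46 in WT replicates 1 to 4. The lowest KO array exceeded the highest WT array. The means of 8.97 ± 0.08 in KO arrays and 8.40 ± 0.11 in WT arrays differed 1.49-fold (log2 0.57, SE 0.08; limma adjusted p = 0.00795), and the call held with each array left out (adjusted p up to 0.0297).

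Itgam, the alpha chain of Mac-1, also rose. Its level was 7.14, 7.16, 7.45 and 7.57 in KO replicates 1 to 4, against 6.73, 6.26, 6.90 and 6.59 in WT replicates 1 to 4. The 2 KO arrays with Xist signal were the highest of all, and the groups did not overlap. The means were 7.33 ± 0.22 in KO arrays and 6.62 ± 0.27 in WT arrays, a 1.63-fold difference (log2 0.71, SE 0.15; limma adjusted p = 0.0334). The call was lost without KO replicates 3 or 4 (adjusted p = 0.0653 and 0.0923) or WT replicates 1, 2 or 4 (0.0793, 0.0708 and 0.0690), with a log2 difference between 0.59 and 0.80 over all 8 such fits.

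Itgal, the alpha chain of LFA-1 on lymphocytes and other leukocytes, missed the threshold narrowly. It read 8.95, 9.06, 8.64 and 9.14 in KO replicates 1 to 4, against 8.41, 8.24, 8.65 and 8.44 in WT replicates 1 to 4. The groups met in replicate 3, where the KO array fell just under the WT array. The log2 difference was 0.51, with an interval from 0.24 to 0.78 (limma adjusted p = 0.0534), and without KO replicate 3 it was 0.61 (adjusted p = 0.0199). Itgal also passed with low genes left out (adjusted p = 0.0433), with quantile normalization (0.0197), cyclic loess (0.0229), array weights (0.0207) or the trend and robust settings (0.0488). It did not pass with a common median per array (0.0879) or the replicate number as a block (0.109). Only 1 of the 8 fits without 1 array called it (adjusted p up to 0.142), and 6 of 20 alternative fits did.

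Itgax, the alpha chain used as a marker of dendritic cells, showed no call. It read 6.26, 6.06, 6.12 and 5.96 in KO replicates 1 to 4, against 6.10, 6.06, 6.20 and 6.07 in WT replicates 1 to 4. The KO values lie on both sides of the WT values, with a log2 difference of -0.01 and an interval from -0.19 to 0.17 (limma adjusted p = 0.951). The row also lay near the array medians.

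Set side by side, 2 of 5 ligands and 2 of 4 integrin chains rose. The median log2 difference was 0.28 for the ligands and 0.54 for the integrin chains. The ligand difference was positive for 5 of 5 genes and the integrin difference for 3 of 4. Whether genes of 1 kind changed unequally was asked for 6 pairs, through the log2 difference between the genes within each array and an exact two-sided permutation test over 70 arrangements, adjusted over the 6. The size of such a within-array difference depends on the probes, and only its change between the groups is read. Icam1 minus Icam2 was 3.73 ± 0.35 in KO arrays and 2.95 ± 0.17 in WT arrays, a change of 0.78 (exact permutation p = 0.0286, the smallest possible; adjusted p = 0.0857). Itgam minus Itgax was 1.23 ± 0.31 in KO arrays and 0.51 ± 0.22 in WT arrays, a change of 0.72 with the same p values. The arrays of both groups stood apart in these 2 pairs. Neither passed after adjustment, but at least 4 of the 6 pairs would have to reach the smallest possible p for any to pass, so the failure says nothing about them. Icam1 minus Vcam1 changed by 0.06 (exact permutation p = 0.800), and without KO replicate 1 its sign turned, to -0.16. Selp minus Sele (0.21), Itgam minus Itgal (0.20) and Itgam minus Itgb2 (0.13) had exact permutation p values of 0.286, 0.314 and 0.400.

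The genotype difference was also taken within each kind of array, 2 KO against 2 WT. Among arrays with Y-linked signal it was 1.05 for Icam1, 0.69 for Vcam1, 0.67 for Itgb2, 0.65 for Itgam and 0.67 for Itgal, on the log2 scale. In the arrays with Xist signal it was 0.78 for Icam1, 1.02 for Vcam1, 0.48 for Itgb2, 0.77 for Itgam and 0.34 for Itgal. Since the groups do not overlap for the first 4 genes, a positive difference in each kind was given beforehand for them, and only the sizes are read. For the other genes it was 0.09 for Icam2, 0.10 for Selp, -0.06 for Sele and 0.08 for Itgax among arrays with Y-linked signal. Among arrays with Xist signal it was 0.18, 0.46, 0.20 and -0.10 in the same order of genes, so Sele and Itgax differed in sign. Fitted on 4 arrays only, Itgb2 was called among those carrying Y-linked signal and Icam1 among those carrying Xist signal. None of the 9 genes passed a limma test of the difference between the 2 kinds (interaction adjusted p between 0.922 and 0.967; 0 at an unadjusted p below 0.05), where 0.0271% of all genes passed. With the kind of array as a block, the same number of the 9, 4, was called. In that fit the limma adjusted p was 0.0108 for Icam1, 0.013 for Vcam1, 0.00627 for Itgb2 and 0.0114 for Itgam. Itgal had 0.0518.

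**Figure D3:**
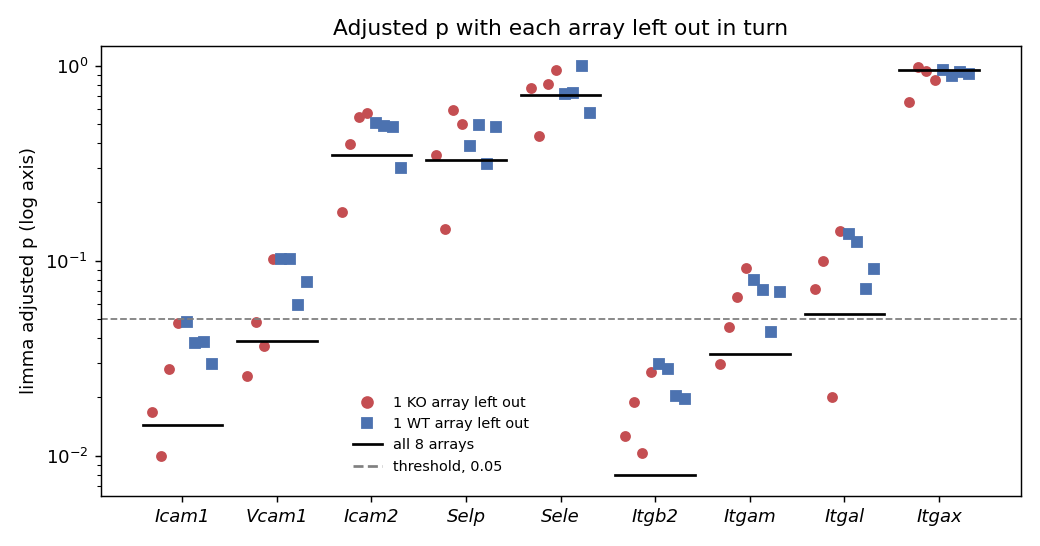
Limma adjusted p (log axis) of each gene with 1 array left out, KO arrays red and WT arrays blue, beside the value from 8 arrays (black line) and the 0.05 threshold (dashed). Icam1 and Itgb2 stay below the threshold in 8 of 8 fits, Vcam1 and Itgam in 3 of 8, and Itgal in 1 of 8.

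Many markers of neutrophils, macrophages and monocytes were higher in the KO arrays, as Itgb2 and Itgam were. For the counts that follow, 1.56% of all genes were called higher and 1.59% lower, and their median log2 difference was 0.02. Of 18 neutrophil markers 11 rose and 1 fell, with a median log2 difference of 0.81 and a per-array mean level between 7.38 and 7.91 in KO arrays and between 6.60 and 6.93 in WT arrays. The granule genes Ngp (log2 2.42) and Mmp8 (2.16) and the chemokine receptor Cxcr2 (0.86) had the smallest p values in that list. Of 17 Kupffer cell and macrophage markers 7 rose, with a median of 0.56 and a mean level between 9.86 and 10.24 in KO arrays and between 9.42 and 9.73 in WT arrays. The complement chain C1qb (0.64) and the hemoglobin scavenger receptor Cd163 (1.01) were among them. Of 14 monocyte and dendritic cell markers 5 rose (median 0.30; mean level between 7.24 and 7.47 in KO arrays, and between 6.78 and 6.98 in WT arrays), led by Fcgr4 (1.37). Of 17 T and NK cell markers only Il2rb (0.66) rose, a call lost without KO replicates 2 or 4 or WT replicates 1, 2 or 4 (adjusted p up to 0.104), with a median of 0.14 and a mean level between 6.07 and 6.19 in KO arrays and between 5.81 and 6.03 in WT arrays. Array by array the order differed: KO replicate 3 had the lowest median deviation of the integrin chains among KO arrays (0.34) and of macrophage markers (0.23), but the highest of neutrophil markers (0.95). The part of these cells in the rise of Itgb2 and Itgam was not tested.

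Markers of endothelium differed in both directions. Of 18 sinusoidal and vascular endothelial markers only Lyve1, a hyaluronan receptor of sinusoids, rose (log2 1.05; limma adjusted p = 0.00660), and the list median was -0.08. The limma p before adjustment was below 0.05 for 7 of the 18, as for 21.2% of all genes. KO and WT arrays did not overlap for 4 of the 18, against 12.9% of all genes. The per-array mean level of the list was between 9.23 and 9.29 in KO arrays and between 9.07 and 9.41 in WT arrays, so the groups overlapped in this mean. Emcn (-0.45; adjusted p = 0.0792) and Tie1 (-0.28; adjusted p = 0.129) had the next smallest p values, both with lower means in KO arrays. Of 9 platelet and 12 B and plasma cell markers limma called none, with 2 and 2 at an unadjusted p below 0.05, where 21.2% of all genes were, and medians of 0.18 and -0.02. Of 13 stellate cell markers, Lrat (-1.01) and Lum (-0.94) fell, where 1.59% of all genes were called lower. Each was without a call when any one of 7 of the 8 arrays was left out (adjusted p up to 0.124 and 0.135). The stellate list median was -0.26.

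**Figure D4:**
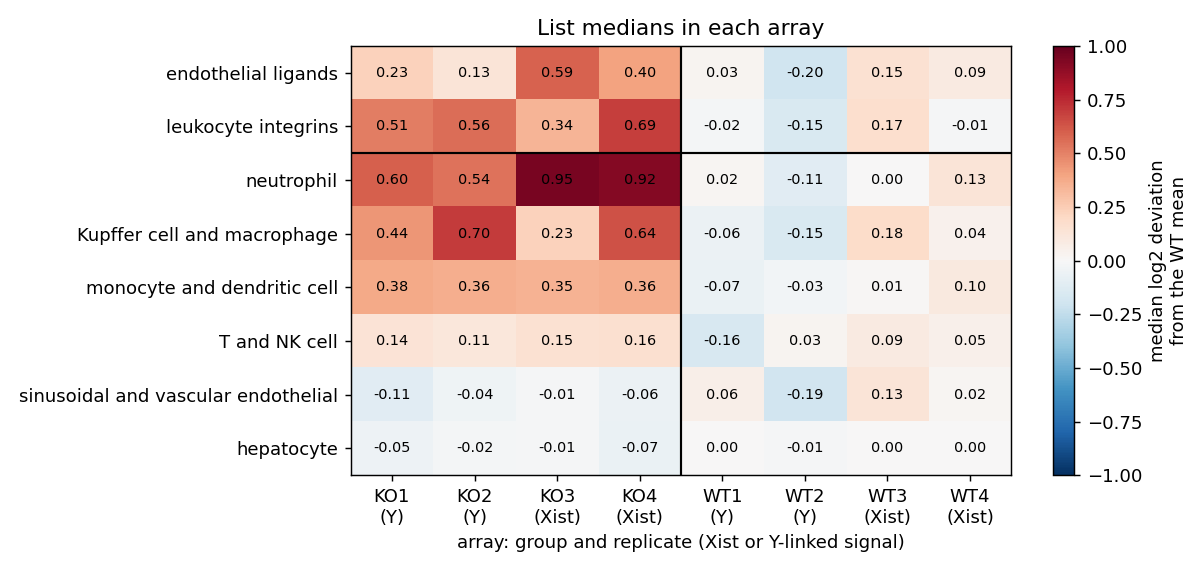
Median log2 deviation from the WT mean over the genes of each list in each array, with KO arrays in the first 4 columns and WT arrays in the last 4. In KO arrays the integrin chains range from 0.34 to 0.69, neutrophil markers from 0.54 to 0.95 and macrophage markers from 0.23 to 0.70; KO replicate 3 is the lowest for integrin chains and macrophage markers and the highest for neutrophil markers, while endothelial markers lie between -0.11 and -0.01 there.

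Across the rest of the adhesion cascade 119 genes in 6 lists were measured, of which 10 rose and 1 fell, against 1.56% higher and 1.59% lower of all genes. A list with 1 gene called of about 20 is close to that share, and nothing is read from such a count about the list. Of 21 other integrin subunits only Itga2, the collagen receptor chain of platelets and other cells, rose (log2 0.43; limma adjusted p = 0.0338). Itga2 averaged 6.65 in KO arrays and 6.22 in WT arrays, not far from the array medians of 6.09 to 6.22. The platelet chains Itgb3 (0.72; adjusted p = 0.0732) and Itga2b (0.28; adjusted p = 0.0636) and the chain Itgb5 (-0.47; adjusted p = 0.0713) did not pass, and the list median was 0.12. Of 20 genes for selectin ligands and their sugar-building enzymes only Cd44, a hyaluronan receptor that can also bind E-selectin, rose (0.50; adjusted p = 0.0268). Selplg, the main ligand of P-selectin, had 0.57 (adjusted p = 0.0734), and this list had a median of 0.11. Without any of 6 of the 8 arrays Itga2 and Cd44 lost their calls (adjusted p up to 0.101 and 0.0812), the exceptions being KO replicates 1 and 3.

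Among 19 genes of integrin activation and of signalling below integrins, 2 rose, where 1.56% of all genes were called higher. Of the 19, 17 had a positive difference, with a median of 0.27 against 0.02 over all genes. Fermt3, the kindlin of blood cells that binds integrin beta tails, averaged 8.74 ± 0.11 in KO arrays and 8.16 ± 0.10 in WT arrays (log2 0.58; limma adjusted p = 0.00863). Fgr, a Src-family kinase of myeloid cells that acts below Itgb2 integrins, rose by 0.71 on the log2 scale (adjusted p = 0.0184), but lost its call without WT replicates 1 or 2 (up to 0.0611). The exchange factor Vav1 had 0.57 (adjusted p = 0.0593). These genes are also expressed by leukocytes, and the part of such cells in their differences was not tested.

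Of 19 junction and transmigration genes 1 passed, a share near that of all genes, and it fell. Before adjustment the limma p was below 0.05 for 10 of the 19, against 21.2% of all genes. KO and WT arrays did not overlap for 6 of the 19, against 12.9% of all genes. Ocln, a tight junction protein of epithelia including hepatocytes, was at 8.78 ± 0.24 in KO arrays and 9.45 ± 0.18 in WT arrays (log2 -0.67; limma adjusted p = 0.0270), with the call lost without KO replicates 3 or 4 or WT replicates 1, 2 or 3 (up to 0.0866). The next smallest p values went both ways: the junction molecule F11r had 0.22 (adjusted p = 0.0793), the CD47 receptor Sirpa 0.38 (adjusted p = 0.0843) and Cldn5, the endothelial claudin, -0.43 (adjusted p = 0.0859), and the list median was -0.01. Of 15 other adhesion receptors of liver cells Lyve1 alone rose, and the list median was 0.09.

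The next list held 25 measured cytokines, receptors and NF-kB pathway genes, which include inducers of endothelial ligands and inhibitors of NF-kB. Of the 25, 5 rose, against 1.56% of all genes. The 5 were receptors, an adaptor and inhibitors of NF-kB. None of the listed cytokines, among them Tnf, Il1a, Il1b, Ifng and Il6, was called. In this list 23 had a positive difference, and the median was 0.22 against 0.02 over all genes. Il1r1, the signalling receptor for interleukin-1, averaged 12.05 ± 0.30 in KO arrays and 10.61 ± 0.31 in WT arrays (log2 1.44; limma adjusted p = 0.00614). The adaptor Myd88 rose by 0.77 (adjusted p = 0.0151) and the NF-kB inhibitor Nfkbia by 0.62 (adjusted p = 0.0259). The lipopolysaccharide receptor Tlr4 rose by 0.42 (adjusted p = 0.0401). Tlr4 averaged 6.35 in KO arrays and 5.93 in WT arrays, near the array medians of 6.09 to 6.22. Tnfaip3, an inducible inhibitor of NF-kB named here after its value was seen as the remaining gene called, rose by 1.11 (adjusted p = 0.0412). Il1r1 kept its call in the fits without 1 array, whereas Myd88 lost it without WT replicates 1 or 2 (up to 0.0533). Nfkbia lost it without KO replicate 4 or WT replicates 2, 3 or 4 (up to 0.0790). Tlr4 and Tnfaip3 lost it without any WT array or KO replicate 4, Tlr4 also without KO replicate 2 and Tnfaip3 without KO replicate 3 (up to 0.114 and 0.107).

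**Figure D5:**
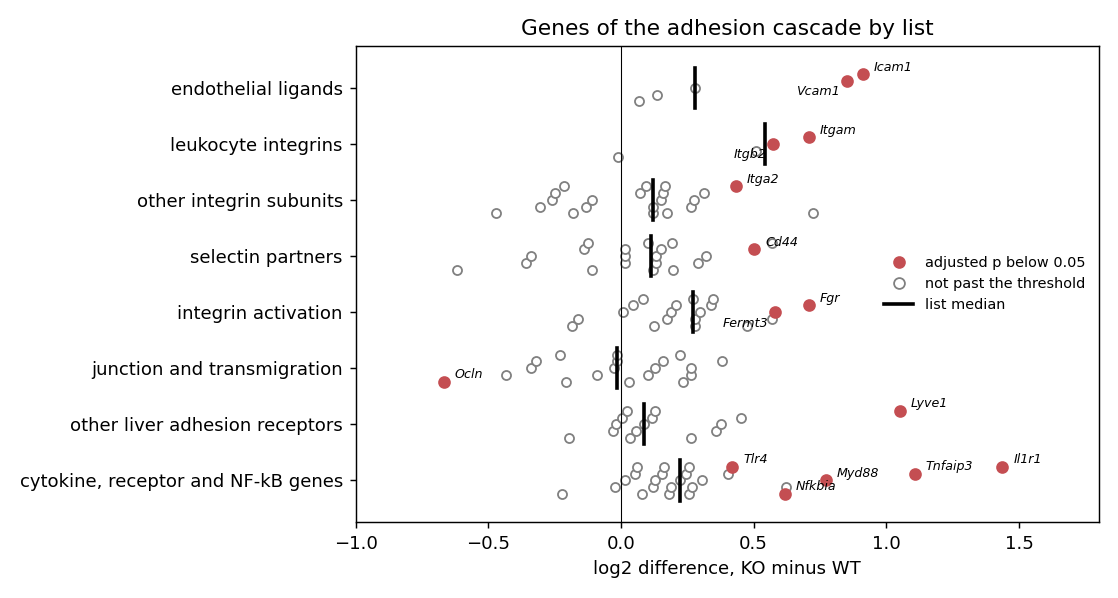
Log2 difference, KO minus WT, of each gene in the lists of the adhesion cascade; red points passed the adjusted p threshold, and black bars are list medians. The called genes lie right of 0 except Ocln (-0.67), and medians run from -0.01 for junction genes to 0.54 for the leukocyte integrins.

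Profiles most like those of the 4 called genes were ranked by the root mean square difference of log2 levels over the 8 arrays, each gene centred on its own mean. Closest to Itgb2 were Spi1 (0.05), Dmpk (0.06) and Rac2 (0.07), and closest to Itgam were Rasgef1b, Txndc11 and Mlxip (0.12 each). Closest to Icam1 were Pfkfb2 (0.13), Zc3h12a (0.14) and Nfkbiz (0.15), of which Pfkfb2 lies on chromosome 1 with 8 protein-coding genes between it and Il10. Vcam1 was closest to Per1 (0.09), Igfbp3 (0.16) and Insig2 (0.16). Among these close profiles Rasgef1b (limma adjusted p = 0.0522) and Igfbp3 (0.171) did not pass the genotype test. Among the 9 genes themselves, Itgb2 was nearest to Itgal (0.11), then Itgam (0.20). Icam1 was nearer to Itgam (0.25) and Itgb2 (0.26) than to Vcam1 (0.32), and Vcam1 was nearest to Itgam (0.20). This measure includes the genotype difference itself, so genes that differ by a like amount come out as alike.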

How the data were processed

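Liver RNA was measured on 8 arrays, 4 labelled knockout and 4 wild-type, grouped by sample title. The authors deposited log2 values from RMA, made in R 3.0.1 as the submitters' processing notes record; their settings and genome build are not stated there. Of 41345 rows 23521 name 1 gene in the platform annotation, giving 22180 genes; where a gene had several rows the one with the highest mean was kept. The number of arrays limits precision. Beyond the design text and the Xist and Y-linked signal, which differs within each group, nothing ties arrays to separate animals. The p-values therefore cover only the spread among these samples, part of which may be technical.

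Genes were compared with limma 3.58.1 in R 4.3.3 (lmFit, eBayes without trend, KO minus WT, no covariates, no filter), with Benjamini-Hochberg adjustment over 22180 genes. In a simulated 4 against 4 comparison of 22180 genes where 200 had changed, 68.0% of these were recovered at 1.5-fold and 96.5% at 2-fold, with 9 and 8 false calls. The simulated noise was normal and independent between genes, with variances drawn from limma's own fit. It held no Xist and Y-linked sets, so these rates need not hold for the real arrays. Pairs of genes were compared by exact permutation over 70 arrangements. Figures used matplotlib 3.10.9. The genes and lists were chosen with earlier results of these data known. Besides the 9 genes and Il10, up to 4 genes of each pathway list and 3 of each marker list with the smallest p were eligible to be named, with the 3 closest profiles of each called gene.

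The alternatives tried were dropping the 40% of genes with the lowest means, averaging a gene's rows, shifting arrays to a common median, quantile normalization, cyclic loess, array weights, trend and robust settings, a test without moderation, the replicate number or the Xist and Y-linked signal as a block, each such set alone, each array left out, an adjusted p below 0.1 and a 1.5-fold minimum. Deviations of same-numbered arrays correlated at 0.27, 0.04, -0.10 and 0.29 for replicates 1 to 4, so the numbers were not taken as pairs. No array repeated another, since the closest 2 differed by a root mean square of 0.22.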

Additional observations from a re-analysis of the deposited data

How the results depend on the processing

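The count of 4 of the 9 adhesion genes called higher was 4 or 5 with low genes left out, the mean of rows, a common median, quantile normalization, cyclic loess, trend and robust settings, array weights, a block by Xist or Y-linked signal or an adjusted p below 0.1, and 3 with a 1.5-fold minimum. With the replicate block the count was 4, and all genes called were 497 against 699 without a block. All genes called were 1038 with the block by Xist or Y-linked signal. The count among the 9 was 1 in the arrays with Xist signal alone and 1 in those with Y-linked signal alone. There 2 arrays stand against 2, with 317 and 171 of all genes called. The unmoderated test called 0 of the 9, 0 pathway genes and 0 of all genes, with 5, 44 and 4141 at an unadjusted p below 0.05. Without 1 array the count was between 2 and 4, at 2 without KO replicate 4 or WT replicates 1, 2 or 4. Over the 20 fits with other values or arrays, Icam1 and Itgb2 were called in 18 each, Vcam1 and Itgam in 12 each and Itgal in 6. Icam2 was among the low genes left out. Without 1 array all genes called ran between 207 and 1040, and pathway genes between 4 and 15.

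The 11 pathway genes called became 7 with a common median, 18 with quantile normalization, 4 in each set alone, 26 at an adjusted p below 0.1 and 7 with a 1.5-fold minimum; these alternatives for the pathway genes were added after seeing the data. All genes called were 1685 at an adjusted p below 0.1 and 377 with a 1.5-fold minimum. A common median changed the split of called genes to 236 higher and 393 lower, from 347 higher and 352 lower. The difference of Sele turned negative with quantile normalization (-0.007) or cyclic loess (-0.011) and among arrays with Y-linked signal alone (-0.059). That of Itgax turned positive among arrays with Y-linked signal alone too (0.076), and without 1 array it lay between -0.064 and 0.036. The change in Icam1 minus Vcam1 lay between -0.156 and 0.240 without 1 array. Of the 6 pairs of genes 0 passed the exact permutation test after adjustment, as deposited, with quantile normalization or without 1 array, and 2 had an unadjusted p below 0.05 as deposited. With 6 pairs at least 4 would have to reach the smallest p for any to pass in 8 arrays. Arrangements kept within the Xist and Y-linked sets cannot pass, since their smallest p is 0.0556. The causes of these shifts were not tested.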
